A study of Oryza sativa with 2 samples.

Results

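Abscisic acid (ABA) is perceived in plant cells by small soluble proteins of the PYL/RCAR family, which share the START fold and close over the hormone in a pocket. The rice genes examined were 9 gene models listed as members of that family by their locus identifiers, out of 55986 gene models in the deposited table. All 9 were present in the table, and all 9 reached the minimum of 10 counts, summed over the libraries. Whether they are all the receptor genes of rice was not checked. The sums, shares and ratios below are therefore over the 9 listed genes, not over the whole family. Messenger RNA had been sequenced from 14-day-old seedlings of the rice cultivar CARI Dhan 7 in 2 libraries. In the salinity group, seeds germinated and grew in a solution of chloride and sulfate salts of sodium, calcium and magnesium with an electrical conductivity of 6 dS/m. In the control group they grew in distilled water. The sources used here do not give the number of seedlings behind each library, and no genotype other than the cultivar enters the comparison.

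In the absence of ABA, clade A protein phosphatases (PP2Cs) hold some SnRK2 kinases, a family called SAPKs in rice, in an inactive state. A receptor that has bound ABA docks onto a PP2C and blocks it, so the kinases become active and phosphorylate transcription factors of the bZIP class, the ABFs. In Arabidopsis, transcripts of clade A PP2Cs are known to rise with ABA, whereas several receptor transcripts are known to decline, and salt and drought are the stresses best known to raise ABA in plants.

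With 1 library in each group there was no replicate to check a difference against and no test was possible. Each interval below is a 95% interval that covers counting error only. The salinity library held 15031328 counts and the control library 45359020. Every salinity count above 0 was even, against 61.7% of those in the control library, and 70.6% of salinity values and 29.1% of control values above 0 were multiples of 4. Intervals therefore use read pairs inferred from these values, with 4 salinity counts or 2 control counts taken as 1 pair, which gives 3.76 and 22.7 pairs in units of 1e6. Levels are CPM, counts per 1e6 counts after TMM scaling of the libraries. Levels of different genes are compared as CPM per kb of exon. Some sums and shares are also given in CPM or counts, where longer models weigh more. Genes are called higher or lower where the whole interval lies beyond 2-fold, and "within 2-fold" means that the whole interval lay inside it. Of 26638 tested gene models, 7.97% were called higher, 5.17% lower and 33% within 2-fold, and the median log2 ratio of salinity over control was -0.08.

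No receptor gene was called higher and none was called lower. The summed level of the 9 genes was 267.2 CPM in the salinity library and 266.5 CPM in the control library, a log2 ratio of 0.00 (interval -0.10 to 0.10). With libraries scaled by total counts, which moved the median of all gene models by -0.25, that sum was at -0.25 (interval -0.35 to -0.15). The 5 abundant members were those whose counts summed over both libraries reached 500. They held 98.9% of the counts of the 9 genes in the salinity library and 98.8% in the control library. Of these 5, 4 were within 2-fold, and their ratios ran from 0.795-fold to 1.55-fold. Among the 14639 gene models that reached 500 counts, 9.34% were called higher, 7.12% lower and 54.9% within 2-fold, so being within 2-fold at this depth was common in the table. With intervals taken from the counts as deposited, which are shorter, 0 receptors were called higher, 0 lower and 6 of 9 within 2-fold, against 10.6%, 10.3% and 44.6% of all tested gene models.

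LOC_Os10g42280 was the most abundant receptor transcript per kb of exon. It is a single-exon model on chromosome 10 (22766466 to 22767104, plus strand). It had 818 counts in the salinity library and 3706 in the control library. Its level was 93.0 CPM per kb (interval 80.7 to 106.7) in the salinity library, against 117.1 CPM per kb (interval 111.8 to 122.5) in the control library. The counting intervals of both levels did not overlap, with the salinity library lower. The log2 ratio was -0.33 (interval -0.55 to -0.12), which stood above 40.1% of tested gene models and so was an ordinary ratio in these libraries. The level of LOC_Os10g42280 stood above 95.8% of tested gene models in the salinity library and above 97.0% in the control library.

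LOC_Os03g18600 was second in level per kb and had the most counts of the listed members. This single-exon model lies on chromosome 3 (10418634 to 10419919, minus strand). It had 1012 counts in the salinity library and 3871 in the control library, which is 57.2 CPM per kb (interval 50.3 to 64.7) and 60.8 CPM per kb (interval 58.1 to 63.5). Both intervals overlapped, and the log2 ratio of -0.09 (interval -0.28 to 0.10) was at the median of all tested gene models.

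LOC_Os05g12260 and LOC_Os02g15640 followed at nearly equal levels. LOC_Os05g12260 is a model of 3 exons on chromosome 5 (7034287 to 7036754, plus strand). It is the only member for which a name was looked for in the RefSeq gene table. A gene of that name was found there on the same chromosome with a similar span, and it carries the synonyms RCAR5, OsPYL5 and OsPYL11. It had 862 counts in the salinity library and 2723 in the control library, which is 46.9 CPM per kb (interval 40.8 to 53.6) and 41.1 CPM per kb (interval 39.0 to 43.4). LOC_Os02g15640, also of 3 exons, lies on chromosome 2 (8801325 to 8805453, plus strand). It had 734 counts in the salinity library and 2255 in the control library, which is 45.9 CPM per kb (interval 39.5 to 53.03) and 39.2 CPM per kb (interval 36.9 to 41.5). For both genes the intervals of the levels overlapped between the libraries. The log2 ratios were 0.19 (interval -0.03 to 0.40) for LOC_Os05g12260 and 0.23 (interval -0.0050 to 0.45) for LOC_Os02g15640, and with total-count scaling both changed sign, to -0.065 and -0.025.

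LOC_Os05g39580 had the highest ratio among the 5 abundant members. It is a single-exon model on chromosome 5 (23239202 to 23240677, minus strand). It had 212 counts in the salinity library and 492 in the control library. Its level was 10.4 CPM per kb (interval 7.82 to 13.6) in the salinity library, against 6.73 CPM per kb (interval 5.91 to 7.63) in the control library, so that the intervals did not overlap and the salinity library was higher. Its log2 ratio of 0.63 had an interval of 0.18 to 1.07, which passes neither rule, since it reaches past 2-fold without lying wholly beyond it. Its ratio stood above 75.9% of tested gene models, and with total-count scaling it was 0.38 (interval -0.078 to 0.81), which includes no change.

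**Figure D1:**
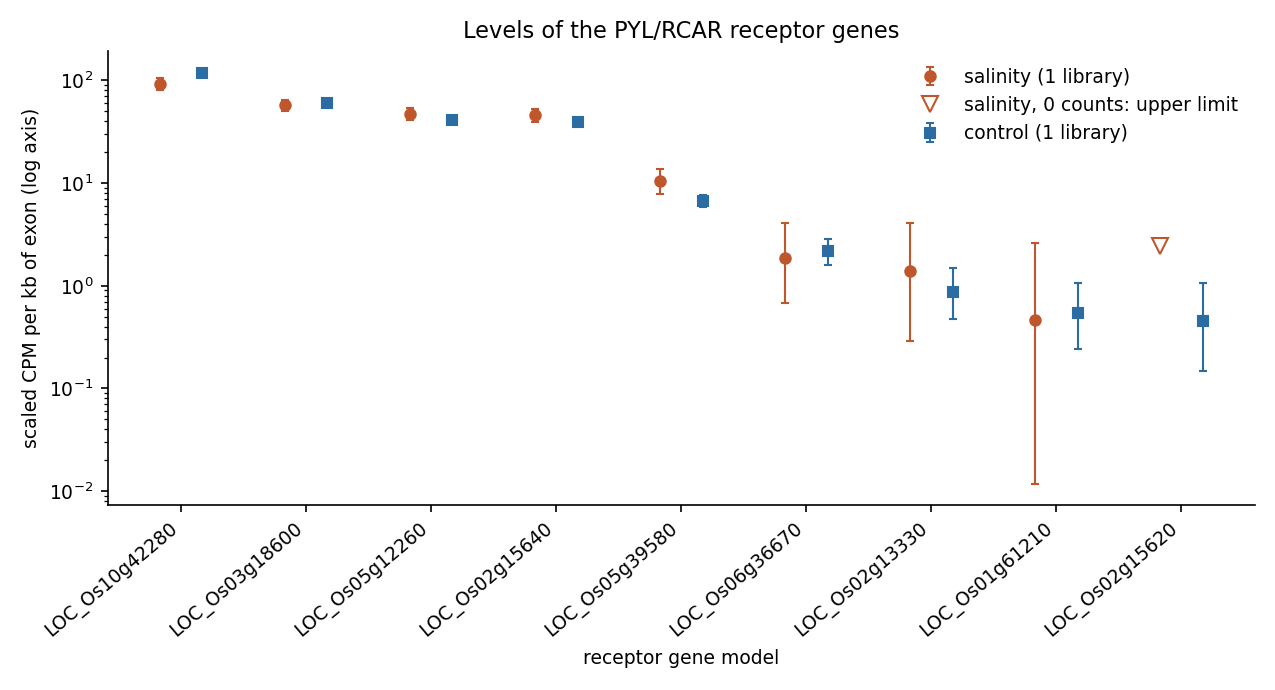
Level of each receptor gene model in CPM per kb of exon (log axis) in the salinity library (circles) and the control library (squares), ordered by the control level. Bars are 95% counting intervals, and the open triangle is the upper limit for the member at 0 counts in the salinity library. LOC_Os10g42280, LOC_Os03g18600, LOC_Os05g12260 and LOC_Os02g15640 lie between 45.9 and 93.0 CPM per kb in the salinity library and between 39.2 and 117.1 in the control library, well above the other members.

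The other 4 members had few counts, at most 24 in the salinity library and at most 100 in the control library. LOC_Os06g36670 (chromosome 6, 21556404 to 21557334, plus strand) had 24 counts in the salinity library and 100 in the control library, a log2 ratio of -0.19 (interval -1.72 to 1.01). LOC_Os02g13330 (chromosome 2, 7111106 to 7111729, minus strand) had 12 and 27 counts, a log2 ratio of 0.71 (interval -1.77 to 2.53). LOC_Os01g61210 (chromosome 1, 35421033 to 35421659, plus strand) had 4 counts in the salinity library, which is 1 read pair, and 17 in the control library, a log2 ratio of -0.11 (interval -5.70 to 2.63). In each of these 3 genes the interval spans both directions, so a difference of 2-fold either way was not detectable at this depth.

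LOC_Os02g15620, a model of 2 exons on chromosome 2 (8779575 to 8781623, plus strand), had 0 counts in the salinity library and 10 in the control library. The limit that a count of 0 allows, 3 read pairs, is 12 salinity counts or 0.872 CPM. That limit is 4.32-fold above the 0.202 CPM measured in the control library. The counts therefore give no bound below no change, and the gene could have been higher, equal or lower in the salinity library. It lies 19701 bases from LOC_Os02g15640 on the same strand, with 1 gene model between them, and its level in the control library was 0.455 CPM per kb, against 39.2 CPM per kb for LOC_Os02g15640.

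**Figure D2:**
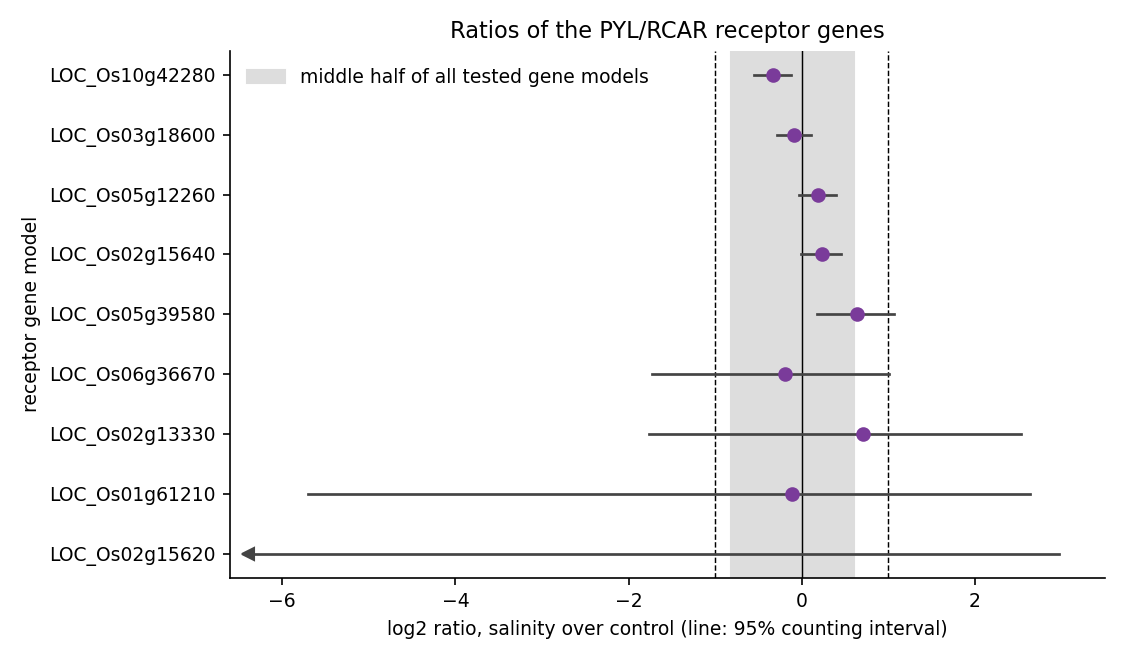
The log2 ratio of salinity over control for each receptor gene model, with its 95% counting interval as a line. Dashed lines mark 2-fold, the grey band runs from the 25th to the 75th percentile of all tested gene models (-0.81 to 0.61), and the arrow marks an interval with no lower end (0 salinity counts). The first 4 genes have short intervals inside 2-fold, and LOC_Os05g39580 reaches just past it at 1.07. The intervals of the 4 scarce genes reach past 2-fold in both directions.

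By these counting intervals, the abundant members did not all have the same ratio between the libraries. Of the 10 pairs among the 5 abundant members, 5 had a difference of log2 ratios whose exact interval excluded 0. Each interval takes 1 pair alone, with no allowance for the number of pairs, and rests on the inferred read pairs. The one nearest to including 0 was LOC_Os02g15640 over LOC_Os03g18600, at 0.32 (interval 0.02 to 0.62). This comparison within the family does not depend on how the libraries are scaled. How often pairs of other gene models at this depth differ was not computed, so the count does not set the family apart. The widest difference was 0.97 (interval 0.46 to 1.46), between LOC_Os05g39580 and LOC_Os10g42280. LOC_Os02g15640 stood 0.56 (interval 0.25 to 0.88) and LOC_Os05g12260 0.52 (interval 0.22 to 0.83) above LOC_Os10g42280 on the log2 scale. LOC_Os02g15640 and LOC_Os05g12260 differed by 0.04 (interval -0.27 to 0.35). LOC_Os03g18600 and LOC_Os10g42280 differed by 0.24 (interval -0.04 to 0.54).

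The make-up of the receptor transcript pool restates the same counts as shares, and it differed between the libraries. LOC_Os10g42280 made up 36.2% of the summed level per kb (interval 32.6 to 39.9) in the salinity library, against 43.5% (interval 42.2 to 44.9) in the control library. LOC_Os02g15640 made up 17.8% (interval 15.5 to 20.4) in the salinity library and 14.6% (interval 13.8 to 15.4) in the control library. LOC_Os05g12260 made up 18.2% (interval 16.0 to 20.6) and 15.3% (interval 14.5 to 16.1). The intervals of LOC_Os10g42280, LOC_Os02g15640 and LOC_Os05g39580 did not overlap between the libraries, whereas those of LOC_Os05g12260 and LOC_Os03g18600 overlapped. How often shares differ within other gene lists was not computed. By counts not divided by length, the intervals of LOC_Os02g15640 overlapped too, at 20.0% (interval 17.4 to 22.7) in the salinity library and 17.1% (interval 16.2 to 18.0) in the control library. Those of LOC_Os10g42280 and LOC_Os05g39580 did not overlap by counts either. LOC_Os05g39580 made up 4.06% (interval 3.05 to 5.29) in the salinity library and 2.50% (interval 2.20 to 2.83) in the control library, and LOC_Os03g18600 22.2% and 22.6%. LOC_Os10g42280 stayed the largest share per kb in both libraries, and by counts, which favour longer models, LOC_Os03g18600 was largest, at 27.5% in the salinity library and 29.3% in the control library.

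**Figure D3:**
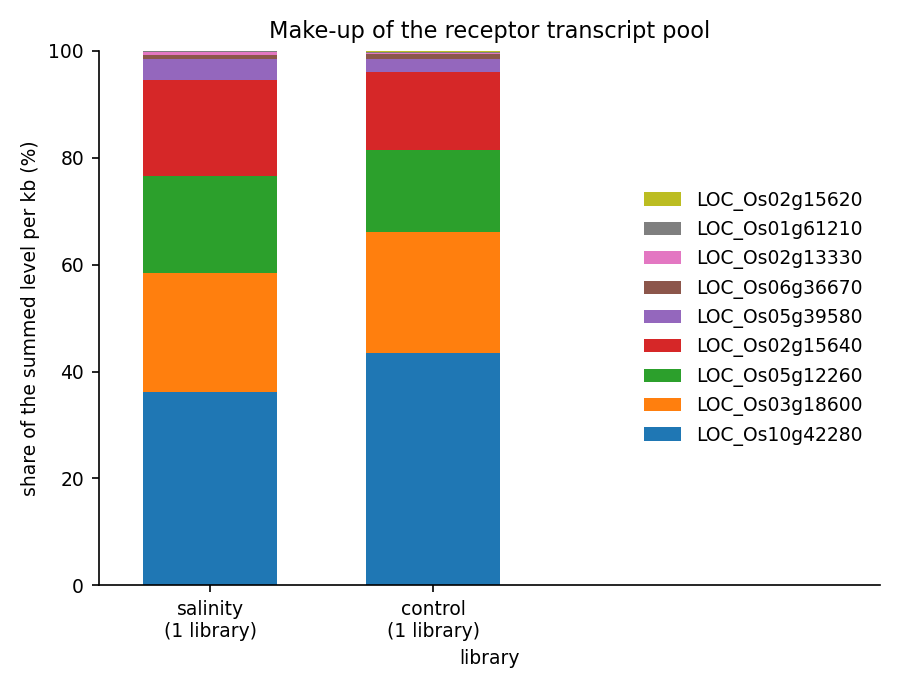
Share of each receptor gene model in the summed level per kb of exon (percent), in the salinity library (left bar) and the control library (right bar), with 1 library each. LOC_Os10g42280 takes 36.2% of the salinity bar and 43.5% of the control bar, and LOC_Os02g15640, LOC_Os05g12260 and LOC_Os05g39580 take more of the salinity bar than of the control bar.

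The gene models differ in structure. Of the 9, 6 have a single exon and 3 have several, namely LOC_Os02g15640, LOC_Os05g12260 and LOC_Os02g15620, and the members lie on 6 chromosomes. The 4 shortest models, with 444, 624, 627 and 639 bases of exon, have lengths that are multiples of 3, as coding length alone has. Their levels per kb may therefore not be on the same footing as those of longer models. LOC_Os10g42280 is one of these 4. A longer model, LOC_Os05g39580 at 1476 bases, also has a multiple of 3, so that trait is not particular to the short models. No other gene model overlapped a member, and the closest neighbour was 2297 bases away.

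The receptors were then set beside the other steps of ABA signalling. Clade A PP2C genes were called higher in 9 of 9 listed members, with log2 ratios from 1.25 to 5.34 and a median of 3.44. All tested gene models had a median of -0.08, with 7.97% called higher. Whether the list holds every clade A gene of rice was not checked, and the list was written with earlier results of these data known. The count therefore describes the listed genes only. With total-count scaling, under which 6.15% of gene models were called higher, 8 of 9 listed PP2C genes were called higher. The call lost was that of PP2C53, at 1.25 (interval 1.02 to 1.48), and it was lost as well with upper-quartile factors and without the count filter. Of the receptors 0 of 9 were called in either direction. The receptor median was -0.09 with fitted ratios, 0.05 over the 8 members with counts in both libraries, and 0.19 with LOC_Os02g15620 set to its limit.

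PP2C68 (LOC_Os09g15670) had the highest ratio of the phosphatases, with 7720 counts in the salinity library and 686 in the control library. Its level was 390.8 CPM per kb in the salinity library and 9.65 CPM per kb in the control library, a log2 ratio of 5.34 (interval 5.17 to 5.51). PP2C30 (LOC_Os03g16170) was at 4.67 (interval 4.54 to 4.80), PP2C51 (LOC_Os05g49730) at 4.20 (interval 3.89 to 4.52) and OsPP2C09 (LOC_Os01g62760) at 3.48 (interval 3.38 to 3.59). All of these encode phosphatases of the group that ABA-bound receptors block.

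The ratio of phosphatase to receptor transcripts within a library does not depend on the scaling between libraries. The 9 listed PP2C genes summed to 1419 CPM per kb in the salinity library, against 106.8 CPM per kb in the control library. The 9 receptor genes summed to 257.1 CPM per kb in the salinity library and 269.0 CPM per kb in the control library. There were thus 5.52 PP2C transcripts per receptor transcript in the salinity library and 0.397 in the control library, a 13.9-fold difference. In counts the ratio was 9.36 (interval 8.75 to 10.03) in the salinity library and 0.756 (interval 0.728 to 0.784) in the control library, a 12.4-fold difference. Without the most abundant member of each list the ratios per kb were 6.27 and 0.639, a 9.80-fold difference.

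Gene by gene, the levels of both families overlapped in each library. In the salinity library, 4 of 9 PP2C genes stood above the highest receptor gene (93.0 CPM per kb), namely PP2C68, PP2C30, OsPP2C09 and PP2C06, and 0 receptors stood above the highest PP2C gene. PP2C06 is named here to complete that count. In the control library, 0 PP2C genes stood above the highest receptor gene, and 4 receptors stood above the highest PP2C gene, OsPP2C09 at 26.7 CPM per kb. These were LOC_Os10g42280, LOC_Os03g18600, LOC_Os05g12260 and LOC_Os02g15640. In the salinity library the same 4 receptors stood above the lowest PP2C gene, OsPP2C08 at 26.9 CPM per kb. OsPP2C08 is named for that place after its value was seen.

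**Figure D4:**
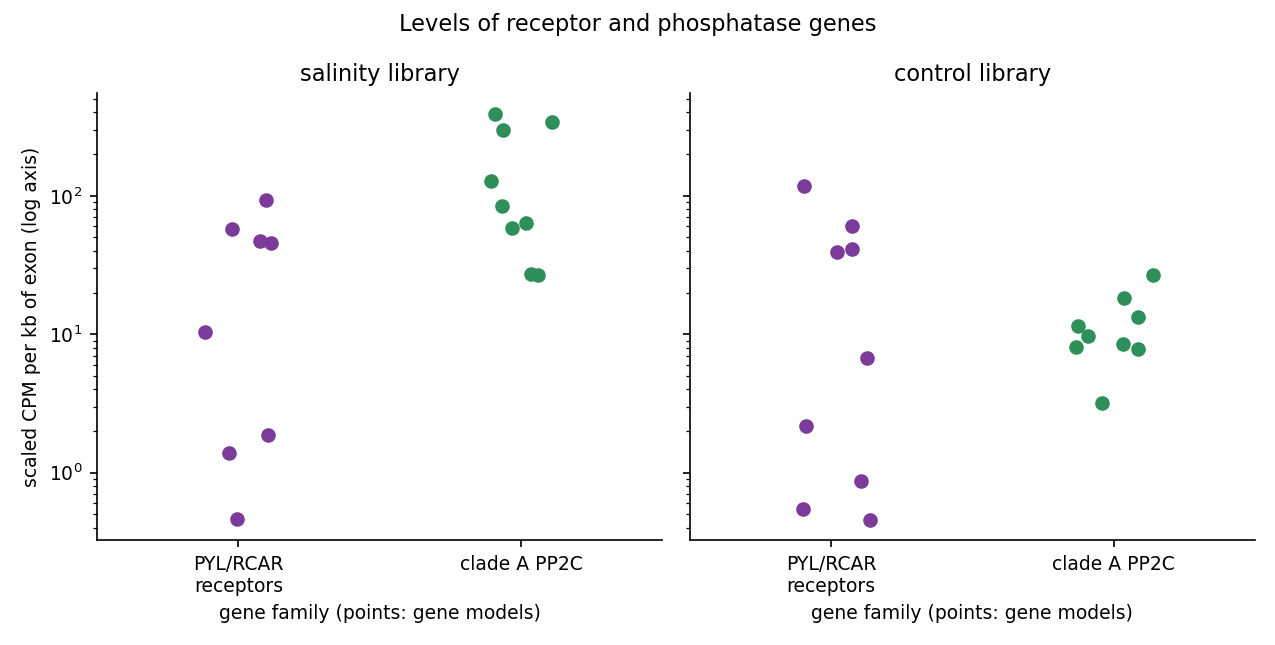
Level in CPM per kb of exon (log axis) of each receptor and each listed clade A PP2C gene model, in the salinity library (left panel) and the control library (right panel). One point is 1 gene model, and LOC_Os02g15620, at 0 counts in the salinity library, has no point there. The PP2C points lie between 26.9 and 390.8 in the salinity library and between 3.20 and 26.7 in the control library, while the highest receptor point lies at 93.0 in the salinity library and at 117.1 in the control library.

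Of 10 listed SAPK genes, 2 were called higher and 0 lower, while 6 were within 2-fold, at a median log2 ratio of 0.29. The list was not split by which kinases ABA activates, so these counts do not stand for ABA-activated kinases alone. Over all tested gene models the shares were 7.97% higher, 5.17% lower and 33% within 2-fold. The higher ones were SAPK1 at 3.18 (interval 2.96 to 3.40) and SAPK6 at 1.65 (interval 1.45 to 1.85). SAPK5, the most abundant kinase gene of the list, was at 78.4 CPM per kb in the salinity library and 65.6 CPM per kb in the control library, within 2-fold. Kinase transcripts per receptor transcript, per kb, were 1.49 in the salinity library and 0.944 in the control library.

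Of 8 genes listed as ABF-type bZIP factors, 4 were called higher and 0 lower, against 7.97% and 5.17% of all tested gene models, with a median log2 ratio of 1.21. With total-count scaling 3 were called higher, against 6.15% of all gene models. BZIP23 (LOC_Os02g52780), an ABA-responsive transcription factor, had 101.1 CPM per kb in the salinity library and 25.5 CPM per kb in the control library, for a log2 ratio of 1.99 (interval 1.86 to 2.12). LOC_Os09g28310 at 2.11 and LOC_Os01g64730 at 1.43 were also called higher. LOC_Os01g64000 was called higher at 2.46 (interval 1.12 to 3.77) on 40 counts in the salinity library and 26 in the control library, and this was the call lost with total-count scaling. The RefSeq table did not pair these 3 loci with a name.

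Of 8 genes listed for ABA synthesis and breakdown, 4 were called higher and 0 lower, against 7.97% and 5.17% of all tested gene models, with a median log2 ratio of 1.36. The call of ZEP was lost with total-count scaling, with upper-quartile factors and without the count filter, which leaves 3 called higher in each. NCED3 (LOC_Os03g44380), which encodes a dioxygenase that cleaves carotenoids in ABA synthesis, was at 31.2 CPM per kb in the salinity library and 3.11 CPM per kb in the control library, a log2 ratio of 3.32 (interval 3.06 to 3.59). ZEP, which encodes zeaxanthin epoxidase, was at 1.16 (interval 1.02 to 1.29), and LOC_Os07g05940, without a matched name, was at 4.93. ABA8OX3, a gene for a hydroxylase that breaks ABA down, was at 2.94 (interval 2.25 to 3.64). ABA8OX1, the most abundant gene of this list, was within 2-fold at 0.03 (interval -0.04 to 0.10).

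**Figure D5:**
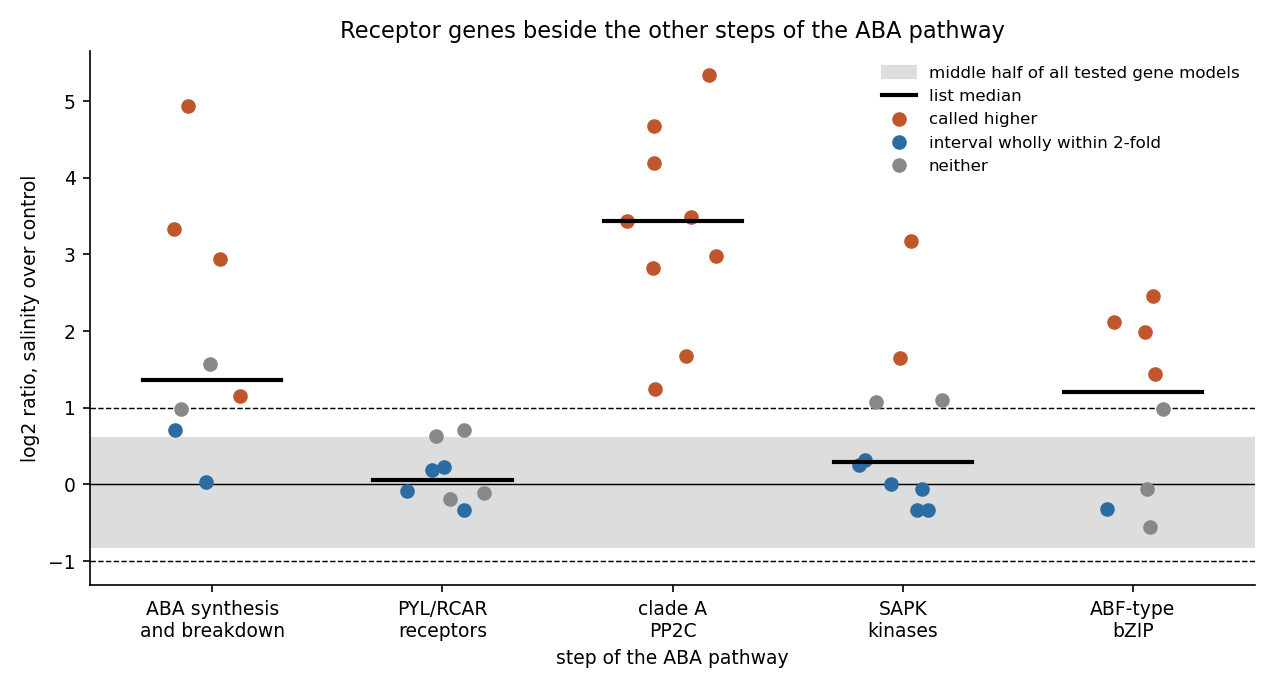
The log2 ratio of salinity over control for the genes of 5 steps of ABA synthesis and signalling. One point is 1 gene model with counts in both libraries, black bars are medians of the plotted points, dashed lines mark 2-fold, and the grey band runs from the 25th to the 75th percentile of all tested gene models. All 9 PP2C points lie above 1, and all 8 plotted receptor points lie between -0.33 and 0.71.

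Whole seedlings were sequenced, and fewer cells of a type and less RNA per cell cannot be told apart in such samples. The marker counts below stand against 7.97% of all tested gene models called higher and 5.17% called lower. Of 5 root markers 1 was called higher and 0 lower, with a summed level of 1388 CPM in the salinity library and 1005 CPM in the control library. Of 4 leaf markers 1 was called higher and 0 lower, with summed levels of 30985 and 22635 CPM. Of 5 grain markers 0 were called higher and 2 lower, with summed levels of 10.2 and 1427 CPM. The grain marker AMY1A, an alpha-amylase gene, had 0 counts in the salinity library and 68861 in the control library. AMY1A alone held 1390 of the 1427 CPM in the control library, so the grain sum stands mostly for 1 gene. The other grain marker called lower was AMY3E, while GLUA1, GLUA2 and AMY3D were not called. The part of organ make-up in the receptor values was not tested.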

How the data were processed

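The authors deposited 1 table of raw counts, with 1 salinity and 1 control column, that also lists exon positions and the exon length of each gene model in bases. Per the labels' protocols, poly(A) transcripts were selected from 800 ng of total RNA. Per the submitters' processing notes, FastQC, MultiQC, STAR, featureCounts and DESeq2 were used; not given in the sources used here were versions, build, annotation, strand setting and the treatment of multi-mapping reads, so reads shared by near-identical family members may have been split or lost. Coordinates are those of the deposited table.

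Libraries were scaled with TMM factors (edgeR 4.0.16, R 4.3.3) from those gene models that reached 10 counts summed over the libraries. Log2 ratios use a prior count of 0.5 per library. Their 95% intervals are exact conditional binomial (Clopper-Pearson) intervals, and those of levels are exact Poisson intervals, on read pairs. A pair was taken as 4 salinity or 2 control counts, inferred from the values. This is approximate in both libraries, since 11654 control values are odd. Only 70.6% of salinity values above 0 are multiples of 4, as are 5 of the 8 salinity values above 0 among the receptors. Differences between 2 members use the exact conditional interval of the odds ratio. An interval of a share per kb keeps the make-up of the other members fixed. Without molecular identifiers, PCR copies of 1 molecule count more than once, so intervals and limits cover counting error only, and calls compare the 2 libraries, not the conditions. DESeq2 1.42.0 size factors, total counts and upper-quartile factors were among the alternatives. All other steps ran in Python 3.11.15 with scipy 1.17.1, pandas 2.3.3, numpy 2.4.6 and matplotlib 3.10.9. The procedure was tested on simulated counts made with the same 4 and 2 counts per pair. That test therefore cannot check the pair assumption itself.

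The receptors were given by locus identifier. The pathway and marker lists rest on general knowledge of rice loci, and members and lists were chosen with earlier results of these data known. All members were named. Per pathway list, up to 4 called genes with the largest absolute ratio and the most abundant gene were named. A gene name was used only where the RefSeq table (assembly ASM3414082v1) held it on the same chromosome, in the same order and with a span within 25%, which was so for 37 of 50 names looked for; other loci carry their identifiers. With 2 libraries each gene has 1 ratio, so no genes of like pattern were sought. Protein and promoter sequences were not used here.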

Additional observations from a re-analysis of the deposited data

How the results depend on the processing

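No paired analysis was possible because each group has 1 library, which also leaves no replicate to leave out. With total-count scaling the log2 ratios were -0.59 for LOC_Os10g42280, -0.34 for LOC_Os03g18600, -0.065 for LOC_Os05g12260, -0.025 for LOC_Os02g15640, -0.34 for the receptor median and -0.25 for the summed receptor level. That scaling gave 2127 gene models called lower, against 1376 with TMM factors, and 1639 called higher, against 2124. Intervals on counts as deposited gave 2755 called lower. By construction, an interval beyond 1.5-fold gave 3408 called higher and 2803 lower, with 4 SAPK genes higher. A point estimate beyond 2-fold gave 4322 and 5556, with 4 SAPK genes higher and 1 receptor lower, LOC_Os02g15620, at 0 salinity counts. Under each of the other alternatives run, 0 receptors were called. With total counts, upper-quartile factors and no count filter, 8 of 9 PP2C genes and 3 of 8 genes of ABA synthesis and breakdown were called higher. With at least 500 counts per gene, a minimum chosen after seeing the data, 1367 models were called higher.

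Shares depend on the scale by construction. In counts they were, in the salinity and the control library, 22.2% and 28.1% for LOC_Os10g42280, 27.5% and 29.3% for LOC_Os03g18600, 23.4% and 20.6% for LOC_Os05g12260, 5.76% and 3.73% for LOC_Os05g39580, and 20.0% and 17.1% for LOC_Os02g15640. Without LOC_Os10g42280 the shares per kb were 34.8% and 40.01% for LOC_Os03g18600, 28.6% and 27.1% for LOC_Os05g12260, 28.0% and 25.8% for LOC_Os02g15640, and 6.36% and 4.43% for LOC_Os05g39580. In the control library they were then 1.43% for LOC_Os06g36670 and 0.575% for LOC_Os02g13330. The ratio of PP2C to receptor transcripts, a measure added after seeing the data, was 9.36 in the salinity library and 0.756 in the control library in counts, and 6.27 and 0.639 without the most abundant member of each list. Depth limits the 4 scarce receptors, whose intervals reach past 2-fold in both directions.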
